A study of Drosophila melanogaster with 9 samples.

Results

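The translation initiation, elongation and release factors of Drosophila melanogaster were followed in whole flies exposed to low oxygen. They were taken as the genes whose single symbol in the probe-gene table begins with eIF, eEF or eRF, and 1 probe set was kept for each gene, the one with the highest mean signal. This gave 47 genes, held on 51 probe sets, of 11982 genes and 18769 probe sets tested in all. Of 54 RefSeq genes with such symbols, 7 were not analysed here, and 2 probe sets that are shared between eIF4E7 and the gene CG17010 were not used as members. Canton-S flies, a laboratory wild-type strain, were exposed for 2.5 h as adults of 5 to 6 days of age. Constant hypoxia (CH) held the flies at 1% O2, and intermittent hypoxia (IH) alternated 4 min at 1% with 4 min at 21% O2. Ramps between these levels, slower on the way down to 1%, lengthened each IH cycle. Less of a cycle was therefore spent at 1% than the hold times alone would give. The normoxia control (NC) was kept for the same 2.5 h in the same room. Each treatment had 3 arrays (Affymetrix Drosophila Genome 2.0), each from total RNA of a pool of 25 males and females. All groups carried the same genotype, and the number of each sex in a pool is not given in the sources used here.

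Translation initiation in eukaryotes begins when eIF2, carrying GTP and the initiator tRNA, joins the small ribosomal subunit together with eIF1, eIF3 and eIF5. The eIF4 group brings in the mRNA: eIF4E holds the 5′ cap, eIF4G is the scaffold and eIF4A is the helicase. After start codon recognition eIF5B joins the large subunit, the eEF1 and eEF2 factors carry elongation, and eRF1 with eRF3 ends synthesis at the stop codon. Cells short of oxygen are known to lower protein synthesis, in large part by phosphorylation of eIF2 and by loss of eIF4E from the cap complex, events on proteins that an array of mRNA does not read. Drosophila also has extra copies of several factors, among them a large eIF4E family and second copies of some eIF3 subunits, and eIF4E3 and eIF4G2 are known for their roles in the male germline.

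The values are signals, a linear intensity per probe set that the authors scaled so that the trimmed mean of every array is 2500. Array medians ran between 594.1 and 822.5, and 21.6% to 25.8% of probe sets lay below a signal of 100. The 47 factors together held 1.06% to 1.14% of the total signal of each array. No marker of ovary, testis, male accessory gland, muscle, neurons or fat body was listed at 0 on any array, and all but 1 testis and 1 fat body marker had a mean signal over 100. In whole-fly RNA, fewer cells of a type and less RNA per cell cannot be told apart. Nothing in the sources tells whether the flies behind the 3 arrays of a treatment were exposed apart from each other. The spread that the p-values rest on is that between these arrays, and it may be technical. Differences are of log2(signal + 16), so that those of low signals are understated, and come from 1 limma fit over all 9 arrays. A probe set was called at a Benjamini-Hochberg adjusted p under 0.05, a fold past 1.5 (or 0.67), and the same direction in all 3 arrays against the other treatment's mean.

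No translation factor passed the test in either kind of hypoxia, and the differences were small. Against NC, the 47 CH log2 differences ran from -0.14 to 0.45, with a median of 0.03, and 31 of 47 were above 0 (51.7% of all probe sets). The IH differences ran from -0.22 to 0.32, with a median of 0.04, and 31 of 47 were above 0 (45.3%). Between CH and IH they ran from -0.23 to 0.59, with a median of -0.01, and 20 of 47 were above 0 (57.0%). The median over all probe sets was 0.01, -0.02 and 0.05 in the same 3 comparisons.

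None of the 47 factors was called in any comparison. Among all probe sets the calls were few as well, 0.0213% (4) higher and 0% lower in CH against NC, 0% in either direction in IH against NC, and 0.0266% (5) higher and 0.0107% (2) lower in CH against IH. At an unadjusted limma p under 0.05 there were 0 of 47 factors in each comparison, whereas 4.68% of probe sets reached it in CH against NC (2.98% higher, 1.70% lower), 3.59% in IH against NC (1.36% higher, 2.23% lower) and 4.77% in CH against IH (3.55% higher, 1.22% lower). The smallest unadjusted p of any factor was 0.114 in CH against NC, 0.122 in IH against NC and 0.0502 in CH against IH, and every adjusted p was at least 0.999.

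A p that misses the threshold does not show that the levels were equal, and the width of the intervals gives the size of difference that could have gone unseen. The 95% interval of the difference lay wholly inside a 1.5-fold change in either direction for 35 of 47 factors in CH against NC, as compared to 22.1% of all probe sets and 29.0% of all genes. It did so for 36 of 47 in IH against NC (23.4% of probe sets, 31.0% of genes) and for 36 of 47 in CH against IH (22.1% and 29.0%). Inside a 2-fold change lay 44, 46 and 45 of the 47 in the same order of comparisons, against 55.4%, 58.0% and 55.2% of probe sets and 69.7%, 72.7% and 69.6% of genes. The factors were measured with little spread: the median SD between arrays of 1 treatment was 0.14 on the log2 scale, against 0.38 over all probe sets and 0.31 over all genes. When the dimmest 40% of probe sets were left out, 46 of the 47 remained. These intervals depend on the scaling. With each array centred on its own median, the intervals inside 1.5-fold numbered 21, 11 and 9 of 47, and the median of the factors moved to -0.01 in CH against NC, 0.13 in IH against NC and -0.14 in CH against IH, while that of all probe sets moved to -0.03, 0.06 and -0.08.

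**Figure D1:**
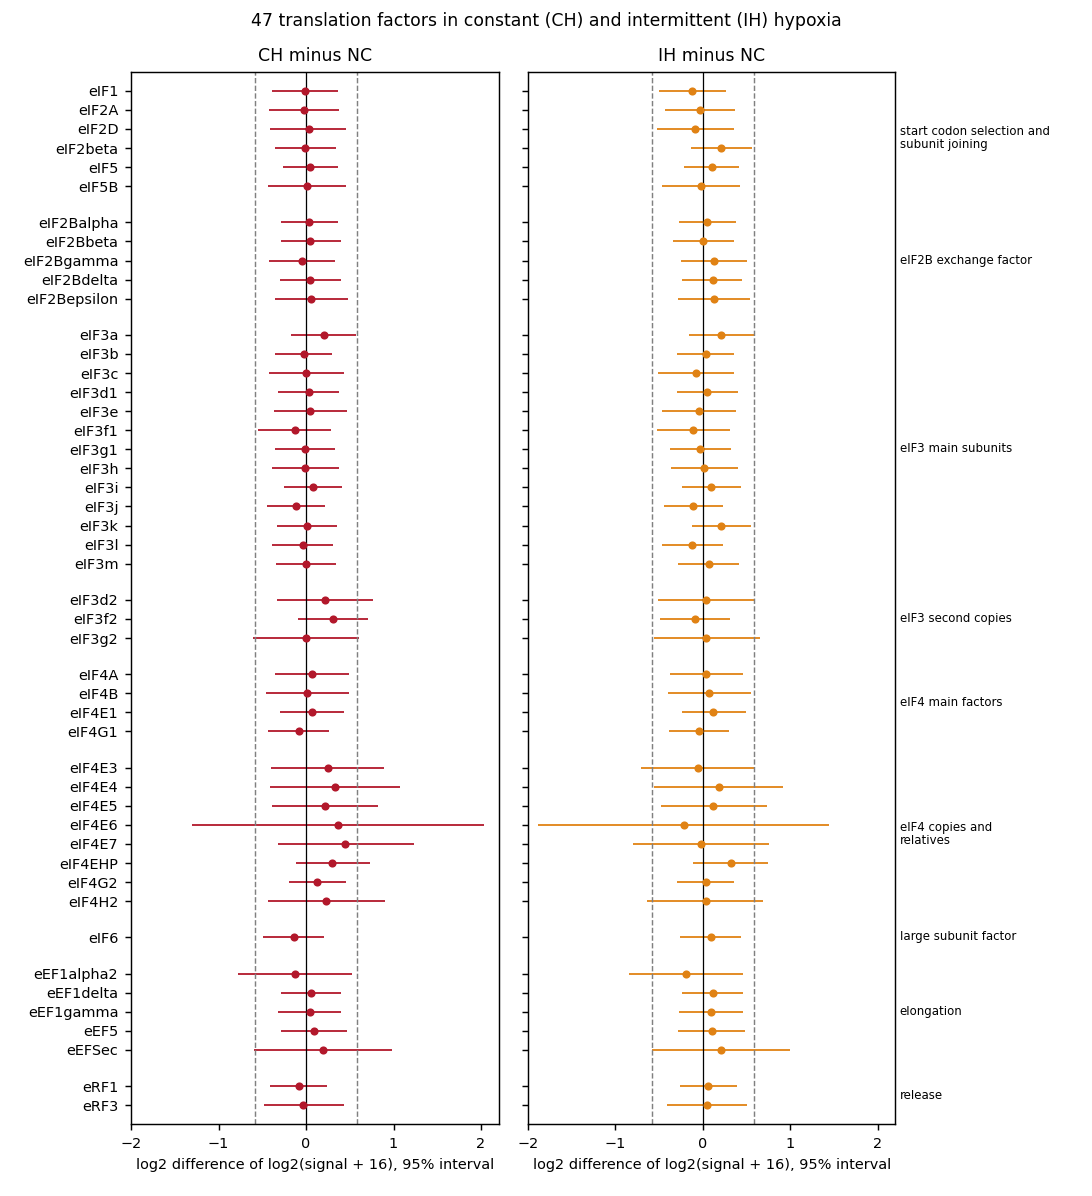
Log2 difference of each of the 47 translation factors in CH minus NC (left) and IH minus NC (right), with its 95% interval from limma, ordered by role; the dashed lines mark a 1.5-fold change (0.58). The intervals of all 13 main eIF3 subunits and all 5 eIF2B subunits lie between the dashed lines, and the widest ones are those of eIF4E6 and eEFSec.

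Among the factors that select the start codon and join the subunits, the 6 measured members had medians of 0.00 in CH and -0.03 in IH against NC (0.06 in IH after median centring), and all 6 intervals stayed inside 1.5-fold. With 1 array left out at a time these medians ran from 0.00 to 0.06 (without CH3) and from -0.05 (without NC1) to 0.01 (without IH3). eIF1, which keeps the scanning complex open, had signals of 30246.6, 34126.1 and 27846.9 in CH, 32514.1, 24789.7 and 28047.5 in IH, and 31169.3, 30044.4 and 31083.3 in NC. The NC arrays were the tightest, and both hypoxic sets spread around them. eIF5, the GTPase activator of eIF2, had the smallest spread of all 47 (SD 0.05 on the log2 scale), with 18216.5, 18274.7 and 17891.4 in CH, 19409.7, 18271.1 and 18560.3 in IH, and 18561.4, 16937.4 and 17031.9 in NC. Its log2 difference was 0.05 in CH (95% interval -0.26 to 0.37) and 0.10 in IH (-0.22 to 0.41).

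The beta subunit of eIF2, which recruits eIF2B and eIF5, was 1 of 3 factors whose IH arrays lay wholly above the NC arrays. Its signals were 17985.3, 18288.0 and 20431.3 in CH, 20396.5, 21032.0 and 24537.5 in IH, and 18706.2, 18373.7 and 19768.1 in NC. IH3 was the highest of the 9 arrays, and the CH arrays overlapped both other treatments. The IH difference was 0.21 (1.16-fold, SE 0.15, 95% interval -0.14 to 0.56), with an unadjusted limma p of 0.201 and an adjusted p of 1.00. The arrays also stayed apart after quantile normalization (0.18) and no longer did after median centring (0.29). The other members gave no such separation. eIF2A, which can deliver initiator tRNA without GTP, differed by -0.02 in CH and -0.03 in IH. eIF2D, a factor of reinitiation, differed by 0.03 and -0.09, and eIF5B by 0.01 and -0.02.

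eIF2B is the exchange factor that reloads eIF2 with GTP and is the complex blocked by phosphorylated eIF2. All 5 subunits were measured, and all 5 intervals stayed inside 1.5-fold in each comparison. In CH against NC the subunits ran from -0.05 (eIF2Bgamma) to 0.06 (eIF2Bepsilon), with a median of 0.05. In IH they ran from 0.00 (eIF2Bbeta) to 0.13 (eIF2Bgamma and eIF2Bepsilon), with a median of 0.11 that became 0.19 after median centring. Without 1 array the CH median ran from -0.02 (without CH1) to 0.09 (without CH3), and the IH median from 0.03 (without IH1) to 0.17 (without IH2).

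eIF2Bepsilon, the catalytic subunit, had signals of 3543.1, 3045.5 and 3030.6 in CH, 3862.9, 2703.5 and 3583.4 in IH, and 3019.9, 2954.6 and 3210.0 in NC. eIF2Bgamma, its partner in catalysis, had 3421.9, 2981.7 and 2942.5 in CH, 4013.0, 3088.5 and 3475.2 in IH, and 3410.2, 3097.3 and 3130.1 in NC. In both, IH1 was the highest of the 9 arrays and IH2 was the lowest of the IH arrays. The regulatory subunits were tighter: eIF2Balpha averaged 3576 ± 283 in CH, 3620 ± 139 in IH and 3483 ± 42.4 in NC (SD, n = 3 each). eIF2Bdelta averaged 4888 ± 475 in CH, 5079 ± 360 in IH and 4705 ± 156 in NC, and eIF2Bbeta 4026 ± 238, 3890 ± 376 and 3877 ± 181 in the same order (SD, n = 3 each).

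eIF3 is the largest initiation complex and holds the small subunit open for the mRNA. Its 13 main subunits had medians of 0.00 in CH and 0.01 in IH against NC, and all 13 intervals stayed inside 1.5-fold in every comparison. Without 1 array these medians ran from -0.05 (CH3) to 0.06 (CH1) and from -0.04 (IH3) to 0.08 (IH2). Of the 13, 6 were above 0 and 7 below in CH against NC. The extremes were eIF3f1 (-0.13) and eIF3a (0.20) in CH, and eIF3l (-0.12) with eIF3a and eIF3k (0.21 each) in IH.

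eIF3a, the largest scaffold subunit, had signals of 13312.9, 11885.4 and 11394.3 in CH, 11739.3, 12589.4 and 12643.9 in IH, and 9146.8, 11344.6 and 11532.2 in NC. The IH arrays lay above all NC arrays, and NC1 was the low one of its treatment. The IH difference was 0.21 (SE 0.16, limma p 0.219, adjusted p 1.00), and without the 3 arrays numbered 1, a setting chosen after seeing the data, the CH difference was 0.02. eIF3k, a small peripheral subunit, had 11705.6, 13454.7 and 13693.2 in CH, 13894.2, 14852.7 and 15806.3 in IH, and 12525.6, 12564.0 and 13318.7 in NC. Its IH arrays lay above all arrays of both CH and NC. The difference was 0.21 in IH against NC (SE 0.15, limma p 0.187) and -0.20 in CH against IH (SE 0.15, limma p 0.214).

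The remaining main subunits gave smaller values. eIF3b, which with eIF3a forms the core, differed by -0.02 in CH and 0.03 in IH, eIF3c by 0.00 and -0.08, and eIF3i by 0.08 and 0.09. The cap-contacting subunit eIF3d1 differed by 0.03 in CH and 0.05 in IH. eIF3e differed by 0.05 and -0.05, eIF3g1 by -0.01 and -0.03, eIF3h by -0.01 and 0.01, and eIF3m by 0.00 and 0.07. The loosely bound subunit eIF3j differed by -0.11 in both CH and IH, eIF3f1 by -0.13 and -0.11, and eIF3l by -0.04 and -0.12.

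The second copies of 3 eIF3 subunits had medians of 0.22 in CH and 0.04 in IH against NC. Without 1 array the CH median ran from 0.02 (NC3) through 0.12 (CH2) to 0.38 (CH3), and the IH median from -0.11 (IH2) to 0.11 (NC2). eIF3f2 carried the smallest p of all 47 factors. Its signals were 692.6, 572.5 and 539.4 in CH, 435.0, 523.2 and 397.6 in IH, and 455.3, 517.3 and 468.5 in NC. Every CH array lay above every IH and NC array. The difference was 0.40 in CH against IH (1.32-fold, SE 0.17, 95% interval 0.00 to 0.80), with a limma p of 0.0502 and an adjusted p of 0.999. Against NC it was 0.31 in CH (1.24-fold, SE 0.17, 95% interval -0.09 to 0.71), with a limma p of 0.114. The CH and IH arrays overlapped after quantile normalization (0.26) and median centring (0.28), while the CH arrays stayed above NC under both (0.25 and 0.27).

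eIF3d2 had signals of 1107.1, 1180.4 and 813.8 in CH, 851.9, 1057.4 and 810.7 in IH, and 1056.9, 956.4 and 656.3 in NC, with array 3 the lowest of each treatment. eIF3g2 had 478.2, 854.9 and 785.2 in CH, 595.0, 885.0 and 669.1 in IH, and 649.9, 808.8 and 609.9 in NC, with array 2 the highest of each treatment. Their CH differences were 0.22 and 0.00, and their intervals, -0.33 to 0.77 and -0.61 to 0.61, reached past 1.5-fold.

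The 4 main factors of the cap complex gave small differences. On the probe sets kept, their intervals stayed inside 1.5-fold in each comparison of the main fit. eIF4A had signals of 54337.0, 70324.8 and 73859.3 in CH, 56158.8, 68174.5 and 69730.5 in IH, and 57418.9, 67372.2 and 63397.1 in NC, and array 1 was the low one in all 3 treatments. eIF4E1, the general cap-binding protein, had 25916.6, 24216.8 and 27164.3 in CH, 27371.0, 23263.8 and 30149.4 in IH, and 25648.8, 23388.8 and 24694.8 in NC, with array 2 the lowest of each. The CH differences were 0.07 for both, and the IH differences 0.04 and 0.12. The scaffold eIF4G1 differed by -0.08 in CH and -0.05 in IH. The helicase cofactor eIF4B differed by 0.01 in CH and 0.07 in IH on its brightest probe set. Of its 3 other probe sets, those with NC means of 14282.1 and 4568.87 differed by -0.02 and -0.09 in CH and by 0.12 and 0.04 in IH. The remaining one, with an NC mean of 89.0, differed by 0.62 in CH (95% interval -0.15 to 1.39) and 0.70 in IH (-0.06 to 1.47).

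All 8 copies and relatives of the cap-complex factors were above 0 in CH against NC, with a median of 0.27. In IH 5 of 8 were above 0, with a median of 0.03, and in CH against IH 7 of 8, with a median of 0.18 that became 0.05 after median centring. None was called, and their spread between arrays was wide (median SD 0.36), so that only 1 of 8 intervals in CH, 1 in IH and 2 in CH against IH stayed inside 1.5-fold.

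eIF4E4 had signals of 2655.4, 3545.7 and 2574.5 in CH, 2038.2, 4476.6 and 1942.0 in IH, and 2373.8, 2417.7 and 2126.3 in NC. The CH arrays lay above the NC arrays, but IH2 was higher than any CH array. Its CH difference was 0.33 (1.26-fold, SE 0.32, 95% interval -0.41 to 1.07), with a limma p of 0.336. eIF4E7 had the largest CH difference of all 47 factors, 0.45 (1.37-fold, SE 0.34, 95% interval -0.32 to 1.23, limma p 0.215). Its signals were 817.0, 1455.1 and 1317.8 in CH, 676.8, 1366.8 and 620.9 in IH, and 938.0, 758.6 and 846.3 in NC. CH1 fell among the NC arrays, and IH2 stood at the level of CH2 and CH3. The 2 probe sets that eIF4E7 shares with CG17010 differed by 0.37 and 0.30 in CH and by 0.15 and 0.11 in IH.

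eIF4E3, the cap-binding protein of the male germline, had 5802.6, 4536.4 and 3982.5 in CH, 3453.1, 5642.3 and 2862.0 in IH, and 4590.5, 4097.5 and 3340.7 in NC. The treatments overlapped, and the CH difference was 0.25 (SE 0.28). eIF4E5 had 3477.8, 5055.8 and 3641.0 in CH, 3077.5, 5428.2 and 3161.6 in IH, and 3752.4, 3126.6 and 3482.9 in NC, a CH difference of 0.22 (SE 0.26). eIF4H2, a helicase cofactor, had 2230.1, 2662.8 and 2386.5 in CH, 1414.9, 3318.9 and 1962.4 in IH, and 2164.6, 2139.5 and 1880.7 in NC. The lowest CH array of eIF4H2 stood just above the highest NC array, with a difference of 0.23 (SE 0.29), and IH held both its highest and its lowest array. eIF4G2, the scaffold of the male germline, differed by 0.13 in CH (SE 0.14) and 0.03 in IH, and was the only one of the 8 with its CH interval inside 1.5-fold.

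eIF4E6 was at the low end of the signals, with 82.8, 398.5 and 275.5 in CH, 56.9, 158.0 and 261.8 in IH, and 306.3, 192.3 and 67.3 in NC. No treatment was apart, and its difference of 0.36 in CH had an interval from -1.30 to 2.03. eIF4EHP binds the cap without eIF4G and holds mRNAs back from translation. Its signals were 6232.2, 5247.9 and 5501.2 in CH, 6177.8, 4620.0 and 6495.2 in IH, and 4492.1, 4252.1 and 5010.5 in NC. All CH arrays and 2 of the IH arrays lay above the NC arrays. The differences were 0.30 in CH (1.23-fold, SE 0.18, limma p 0.138) and 0.32 in IH (1.25-fold, SE 0.18, limma p 0.122), both with an adjusted p of 1.00. A second probe set of eIF4EHP gave -0.01 in CH and 0.07 in IH, with 95% intervals of -0.67 to 0.66 and -0.60 to 0.74 that overlap those of the first. The difference between the 2 probe sets was not tested.

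The array IH2 stood apart for some of these copies. In percent of the mean of all 9 arrays, IH2 stood at 133 for eIF4E3, 167 for eIF4E4, 143 for eIF4E5, 140 for eIF4E7 and 148 for eIF4H2, while the other 2 IH arrays lay between 63.2 and 87.6 for the same genes. It stood at 79.0 for eIF4E6, 86.6 for eIF4EHP and 95.7 for eIF4G2. Without IH2 the median of the 8 copies was -0.26 in IH against NC, with 2 of 8 above 0 (eIF4EHP and eIF4G2), and 0.54 in CH against IH. Without IH1 these medians were 0.26 and 0.05, and without NC3 the IH median was -0.01. In CH against NC the median ran from 0.17 (without CH2) to 0.32 (without NC1).

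Without IH2, 6 factors had an unadjusted limma p under 0.05 in CH against IH. eIF4E7 (0.83), eIF3f2 (0.51), eIF4E3 (0.58), eIF4E4 (0.54) and eIF4H2 (0.53) were higher in CH and eIF6 (-0.33) lower, with adjusted p from 0.339 to 0.437. In the same fit 9.29% of all probe sets reached that p on the higher side and 1.57% on the lower, so that 5 and 1 of 47 lie near the background. eIF4EHP reached a p of 0.0185 in IH against NC without that array (0.47, adjusted p 0.67), where 6.84% of all probe sets did so, 282 of 18769 on the higher side.

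Markers of the testis and the male accessory gland are set beside these copies. Against NC, 18 of 21 testis markers were above 0 in CH, with a median of 0.26, and 12 of 13 accessory gland markers, with a median of 0.27. In IH 6 of 21 testis markers (median -0.10) and 6 of 13 accessory gland markers (median -0.06, which became 0.02 after median centring) were above 0. Without IH2 the IH counts were 2 of 21 (median -0.32) and 0 of 13 (median -0.20), and without IH3 the medians were 0.05 and 0.23. The summed signal of the testis markers ran from 128990 to 151044 in CH, 81708 to 161475 in IH and 102916 to 120630 in NC. IH2 held the highest sum of all arrays, and CH2 the highest of the CH arrays. These peaks were not particular to the testis. The muscle and neuron sums were also highest on IH2 (334419 and 30208.9) and, within CH, on CH2 (291660 and 27017.3). Those of ovary and fat body were highest on IH3 and, within CH, on CH3. IH2 also had the highest median signal of all arrays (822.5). In CH, eIF4E4, eIF4E5, eIF4E6, eIF4E7 and eIF4H2 were also highest on CH2, while eIF4E3 and eIF4EHP were highest on CH1 and eIF4G2 on CH3. The testis sum was lowest of CH on CH3, as were eIF4E3 and eIF4E4. By contrast, eIF4E5, eIF4E6, eIF4E7, eIF4G2 and eIF4H2 were lowest on CH1, and eIF4EHP on CH2. The accessory gland sum ran from 238938 to 298944 in CH, 159050 to 273428 in IH and 207613 to 236287 in NC, and in CH it was highest on CH1. None of these markers was called, and their part in the values of the eIF4 copies was not tested.

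**Figure D2:**
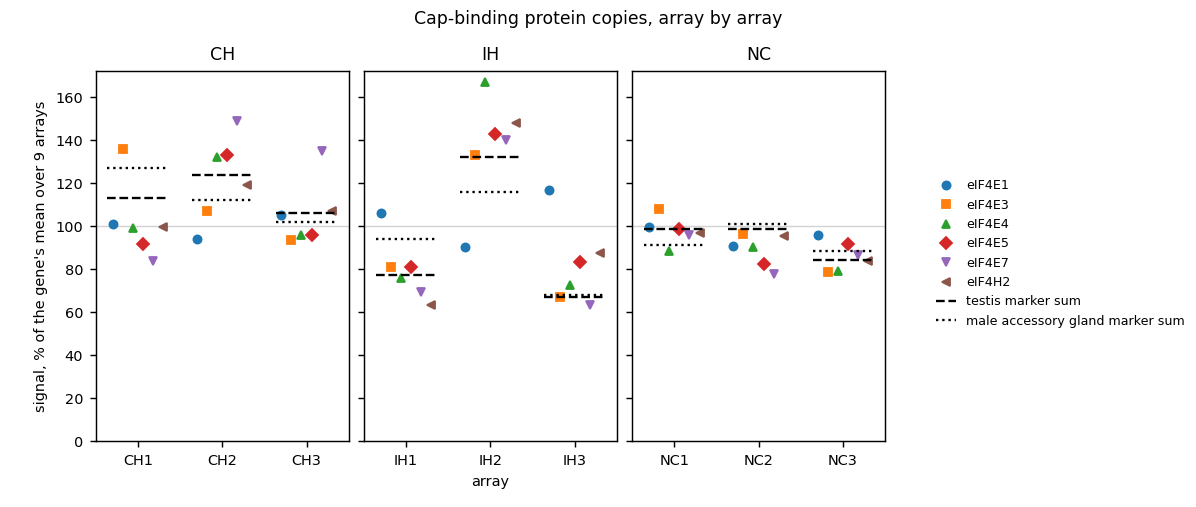
Signal of eIF4E1, 4 copies of the eIF4E family and eIF4H2 on each array, in percent of the gene's mean over the 9 arrays, for CH, IH and NC; horizontal bars give the summed signal of the testis (dashed) and male accessory gland (dotted) markers on the same scale. On IH2 the 5 copies drawn stand at 133 to 167 and the testis sum at 132, while eIF4E1 stands at 90.3. Of the copies, eIF4E6, eIF4EHP and eIF4G2, which are not drawn, stand at 79.0, 86.6 and 95.7.

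eIF6 keeps the large ribosomal subunit apart from the small one until it is mature. Its signals were 6173.6, 5870.0 and 5588.5 in CH, 7485.6, 6013.6 and 7272.5 in IH, and 6296.7, 6399.9 and 6756.8 in NC. It was the only factor whose CH arrays lay wholly below the NC arrays. The difference was -0.14 in CH against NC (0.906-fold, SE 0.15, 95% interval -0.49 to 0.21, limma p 0.381) and -0.23 in CH against IH (0.852-fold, SE 0.15, limma p 0.171). After median centring the CH and NC arrays overlapped (-0.19).

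Of the elongation factors 5 were among the 47 members, and eEF2 was not. The medians of the 5 were 0.06 in CH and 0.10 in IH against NC. These became 0.03 and 0.01 after quantile normalization and 0.01 and 0.18 after median centring, and ran from 0.00 (CH3) to 0.07 (NC2) and from 0.05 (IH3) to 0.11 (NC2) without 1 array. eEF1gamma, a subunit of the complex that reloads eEF1 with GTP, had signals of 72462.2, 85257.3 and 91976.2 in CH, 79159.7, 87736.5 and 91610.7 in IH, and 77284.3, 84568.1 and 80041.6 in NC. eEF5, which eases the joining of proline residues and was formerly named eIF5A, had 71449.7, 82498.8 and 92192.7 in CH, 73401.3, 82998.1 and 90929.5 in IH, and 74719.8, 78239.7 and 77422.6 in NC. In both genes array 1 was the lowest and array 3 the highest in CH and IH, and the treatments overlapped throughout. eEF1delta, another exchange subunit, differed by 0.06 in CH and 0.11 in IH.

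eEF1alpha2, the second form of the factor that carries aminoacyl-tRNA, had signals of 7010.4, 10966.4 and 9192.8 in CH, 6094.7, 11918.0 and 8622.2 in IH, and 8250.4, 10613.7 and 10617.0 in NC. In all 3 treatments array 1 was the lowest, as it was for the summed muscle, neuron, ovary and fat body markers. eEFSec, named for the delivery of selenocysteine, had 925.3, 487.5 and 466.3 in CH, 814.2, 453.7 and 596.4 in IH, and 643.3, 583.1 and 375.7 in NC, with array 1 the highest throughout. Its differences, 0.19 in CH and 0.21 in IH, had intervals from -0.60 to 0.98 and from -0.58 to 1.00.

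Both release factors had intervals inside 1.5-fold in every comparison. eRF1, which reads the stop codon, had signals of 15226.5, 16319.5 and 16603.1 in CH, 17997.0, 16960.3 and 18315.1 in IH, and 18229.9, 16662.6 and 16169.8 in NC. The CH arrays lay below all IH arrays, and the NC arrays overlapped both. The CH against IH difference was -0.15 (0.904-fold, SE 0.14, 95% interval -0.47 to 0.18, limma p 0.332). eRF3, its GTPase partner, had 22222.4, 16933.5 and 17205.2 in CH, 24193.9, 16297.1 and 19122.3 in IH, and 19982.4, 18675.5 and 18336.4 in NC, with array 1 the highest of each treatment and differences of -0.03 in CH and 0.05 in IH.

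Few factors had arrays that did not overlap between treatments. In CH against NC 4 of 47 lay wholly higher and 1 wholly lower, against 7.13% and 5.39% of all probe sets. In IH against NC 3 lay higher and 0 lower, against 2.63% and 4.03%. In CH against IH 1 lay higher and 2 lower, against 5.07% and 2.79%. After median centring eIF3f2 in CH against NC was the only one of these to stay apart.

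**Figure D3:**
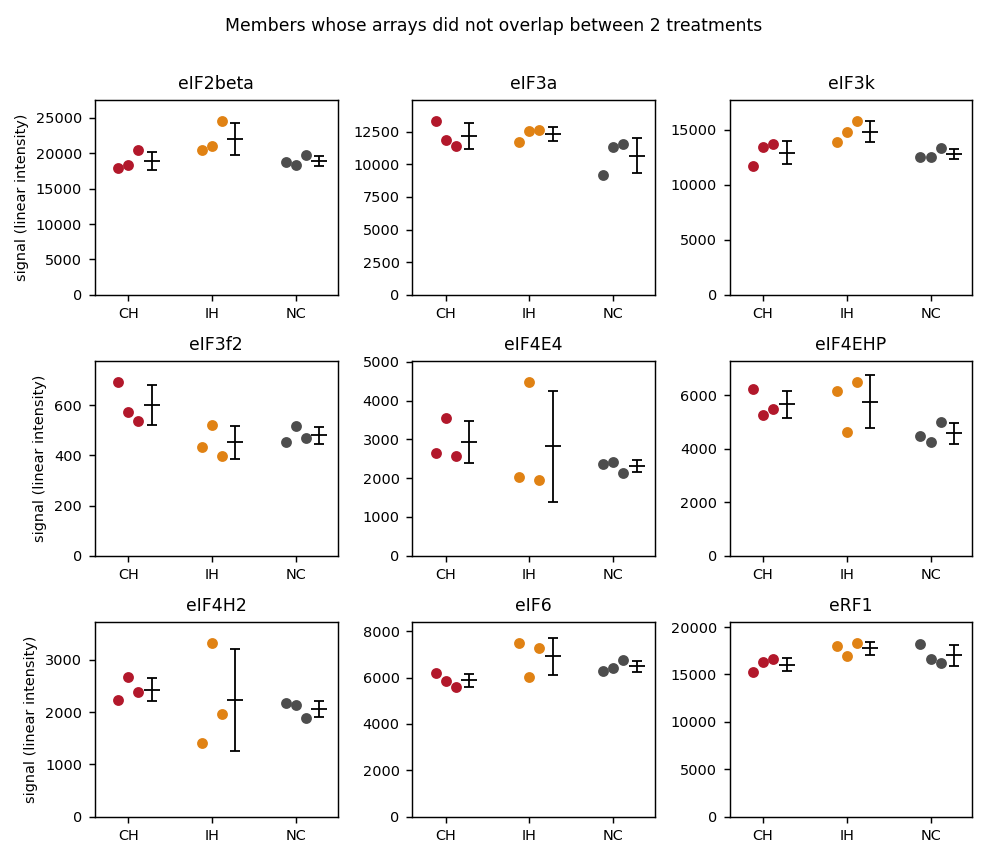
Signal (linear intensity) on each array of the 9 factors whose arrays did not overlap between at least 1 pair of treatments, for CH, IH and NC; the bar beside each set of 3 points is the mean with its SD. In eIF3f2 the CH points (539.4 to 692.6) stand above those of IH and NC, and in eIF2beta and eIF3k the IH points stand above those of NC.

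The replicate number of an array marked some factors more clearly than its treatment. In 9 of 47 factors array 1 was the lowest of all 3 treatments: eEF1alpha2, eEF1gamma, eEF5, eIF2A, eIF3f1, eIF3g1, eIF3h, eIF3k and eIF4A. In eEFSec, eIF2Bgamma and eRF3 it was the highest of all 3. Array 2 was the lowest throughout in 5 factors and array 3 in 3. The same counts were not made over all probe sets, so these are not shown to be particular to the factors. Over all probe sets, the deviations of the arrays numbered 1 correlated at 0.276 to 0.322 between treatments. The summed muscle markers were also lowest on array 1 of each treatment, at 247236 in CH, 185264 in IH and 209131 in NC, where the highest sums of the same treatments were 291660, 334419 and 299825. So were those of neurons, ovary and fat body. Between treatments, 8 of 13 muscle markers were above 0 in CH against NC (median 0.03) and 3 in IH (median -0.08), and 3 of 13 neuron markers in CH (median -0.05) and 1 in IH (median -0.20). Of 22 ovary markers 15 were above 0 in CH (median 0.15) and 18 in IH (median 0.17), and of 8 fat body markers 4 in CH (median -0.03) and 4 in IH (median 0.00). The fat body differences in CH went both ways, from -0.63 to 1.22. Of these 8 markers 2 were higher at an unadjusted limma p under 0.05 (smallest 1.98e-04, smallest adjusted p 0.169), against 2.98% of all probe sets, and 0 were called. The medians of these tissue markers moved when single arrays were left out. Without 1 array those of muscle ran from -0.14 (NC1) to 0.18 (NC3) in CH and from -0.31 (IH2) to 0.13 (IH1) in IH, and those of neurons from -0.15 (NC1) to 0.10 (CH1) and from -0.41 (IH2) to 0.01 (IH1). The ovary medians ran from 0.04 (NC1) to 0.21 (NC3) in CH and from 0.04 (IH3) to 0.25 (IH2) in IH, and were 0.08 in both after quantile normalization. The fat body medians ran from -0.08 (CH3) to 0.11 (CH1) and from -0.06 (IH3) to 0.16 (IH2). Whether the array number stands for a shared day or batch is not given in the sources used here, and the part of these tissues in the factor values was not tested. Without the 3 arrays numbered 1, again a setting chosen after seeing the data, eIF4E6 in CH against NC was the only factor at an unadjusted p under 0.05 in any comparison (1.40, limma p 0.0466, adjusted p 0.870). On the higher side 3.15% of all probe sets reached that p in the same comparison.

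**Figure D4:**
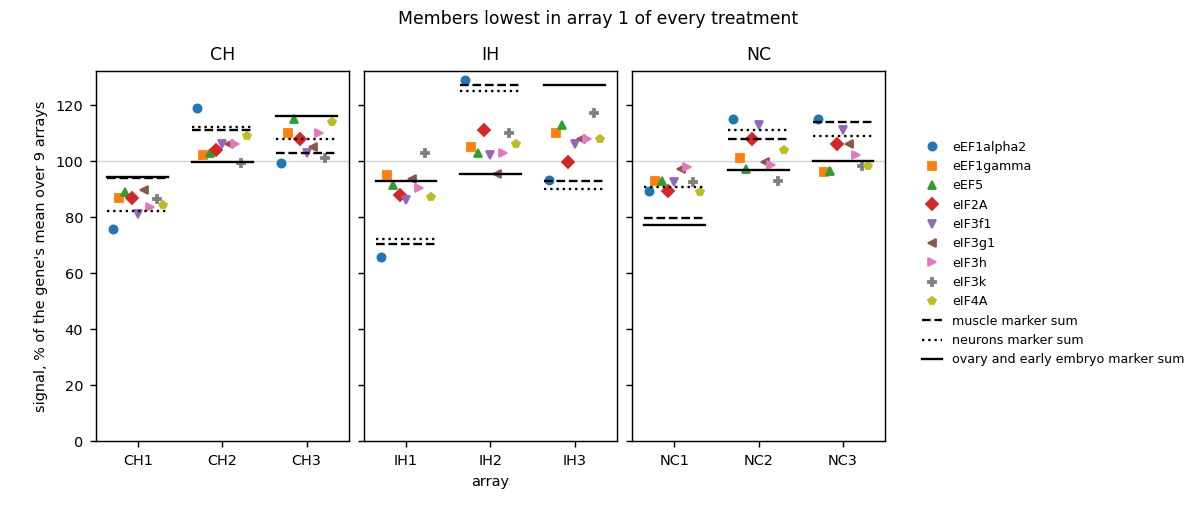
Signal of the 9 factors that were lowest on array 1 of every treatment, in percent of the gene's mean over the 9 arrays, for CH, IH and NC; horizontal bars give the summed signal of the muscle (dashed), neuron (dotted) and ovary (solid) markers. CH1 holds the factors at 75.8 to 89.7, IH1 at 65.9 to 103 and NC1 at 89.0 to 97.8.

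The pathways that act on these factors were measured beside them. Of the eIF2 kinases and their partners 5 genes were measured, with 3 above 0 in both CH and IH (medians 0.06 and 0.00, which without 1 array ran from 0.01, NC2, to 0.13, NC1, and from -0.20, IH1, to 0.07, NC1). PEK, the eIF2 kinase of the endoplasmic reticulum, had signals of 3986.9, 2630.0 and 3602.4 in CH, 4252.5, 2362.6 and 3257.6 in IH, and 3661.3, 3013.1 and 2958.0 in NC, with array 1 the highest of each treatment. Its differences were 0.07 and 0.00. Gcn2, the kinase that senses uncharged tRNA, differed by -0.24 in CH (95% interval -0.95 to 0.47) and -0.33 in IH (-1.04 to 0.37). crc, the ATF4 of Drosophila whose translation rises when eIF2 is phosphorylated, differed by -0.09 in CH (95% interval -0.46 to 0.28) and 0.01 in IH. Pp1alpha-96A, a protein phosphatase catalytic subunit, was the one gene of this list at an unadjusted p under 0.05. It had 7177.8, 9761.7 and 8822.8 in CH, 6294.2, 6748.7 and 6461.7 in IH, and 7248.1, 8121.0 and 7390.8 in NC. Its CH arrays lay above all IH arrays (0.39, limma p 0.0458, adjusted p 0.999). In CH against IH 3.55% of all probe sets were under 0.05 on the higher side.

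Of the TOR pathway and the regulators of the cap complex 19 genes were measured, and none was called. Against NC 14 were above 0 in CH (median 0.03, which became -0.01 after median centring), and 6 in IH (median -0.05, which became 0.03). Between CH and IH 16 were above 0 (median 0.20, which became 0.07). Without 1 array these medians ran from 0.03 to 0.20 (CH1), from -0.11 (IH1) to 0.00 (IH3) and from 0.12 (CH2) to 0.25 (CH1). REPTOR, a transcription factor active when TOR is low, had 4269.1, 4934.9 and 4982.6 in CH, 3264.2, 3170.0 and 3215.1 in IH, and 3021.9, 3615.3 and 3051.9 in NC. Its CH arrays lay above all others. The difference was 0.55 in CH against NC (1.46-fold, SE 0.15, 95% interval 0.20 to 0.90, limma p 0.00687, adjusted p 0.686) and 0.55 in CH against IH (limma p 0.00680, adjusted p 0.657).

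scyl, a hypoxia-inducible inhibitor of TOR signalling, had 9002.8, 18583.6 and 19090.3 in CH, 6214.9, 12214.6 and 10882.2 in IH, and 6557.3, 8959.5 and 9141.4 in NC. CH2 and CH3 stood at the top, CH1 lay within NC, and array 1 was the lowest of each treatment. The difference was 0.86 in CH against NC (1.81-fold, SE 0.37, 95% interval 0.01 to 1.70, limma p 0.0473, adjusted p 1.00) and 0.21 in IH against NC. rictor, the defining subunit of TORC2, had 4140.5, 2550.6 and 3326.6 in CH, 2753.5, 1608.0 and 1991.5 in IH, and 2555.3, 2464.3 and 2099.9 in NC. Its CH against IH difference was 0.66 (1.58-fold, SE 0.26, limma p 0.0318, adjusted p 0.968), with CH2 below IH1. Each of these p fails the adjustment over all probe sets. Of the 19 genes, 2 were higher at an unadjusted limma p under 0.05 in CH against NC and 2 in CH against IH. The shares of all probe sets were 2.98% and 3.55%.

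The genes that supply translation had medians below NC in CH and above NC in IH, by small amounts. Of 16 aminoacyl-tRNA synthetases, which charge tRNAs, 5 were above 0 in CH against NC (median -0.02) and 15 in IH against NC (median 0.10). Between CH and IH 1 of 16 was above 0, with a median of -0.14. Of 18 ribosome biogenesis genes 3 were above 0 in CH (median -0.11), 13 in IH (median 0.05) and 1 in CH against IH (median -0.15). The medians over all probe sets were 0.01, -0.02 and 0.05. Of 9 mitochondrial translation factors 2 were above 0 in CH (median -0.09), 6 in IH (median 0.07) and 1 in CH against IH (median -0.20). These medians kept their sign after quantile normalization and median centring, but moved when single arrays were left out. The synthetase medians ran from -0.08 (CH1) to 0.01 (CH2) in CH, from 0.05 (IH1) to 0.17 (IH2) in IH and from -0.25 (IH2) to -0.07 (IH1) between CH and IH. Those of ribosome biogenesis ran from -0.14 (CH1) to -0.06 (CH2), from 0.01 (IH1) to 0.14 (IH2) and from -0.27 (IH2) to -0.06 (IH1). Those of the mitochondrial factors ran from -0.19 (CH1) to -0.03 (CH3), from -0.05 (IH1) to 0.12 (IH2) and from -0.27 (IH2) to -0.03 (IH1). The CH and IH values share the NC arrays, and none of the genes was called.

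AlaRS had the lowest CH against IH difference of the 16 synthetases. Its signals were 4994.4, 5074.3 and 5065.1 in CH, 6685.0, 5285.4 and 6267.3 in IH, and 5346.8, 5275.8 and 5607.6 in NC. The CH arrays lay below all others, with differences of -0.10 in CH against NC and -0.26 in CH against IH. Ns2, a nucleostemin-family GTPase, was the only ribosome biogenesis gene above 0 in CH against IH and 1 of 3 in CH against NC, with 386.8, 396.7 and 416.9 in CH, 306.4, 289.9 and 268.1 in IH, and 270.3, 338.3 and 281.8 in NC. Its CH arrays were above all others (0.42 in CH against NC, limma p 0.0259, adjusted p 0.935, and 0.45 in CH against IH, limma p 0.0180, adjusted p 0.818). On the higher side 2.98% and 3.55% of all probe sets were under 0.05 in these comparisons. Of 6 termination, rescue and recycling factors, 2 were above 0 in CH (median -0.08) and 2 in IH (median -0.05, which became 0.03 after median centring). Without 1 array these medians ran from -0.14 (CH1) to 0.04 (NC1) and from -0.19 (IH1) to 0.10 (IH2).

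**Figure D5:**
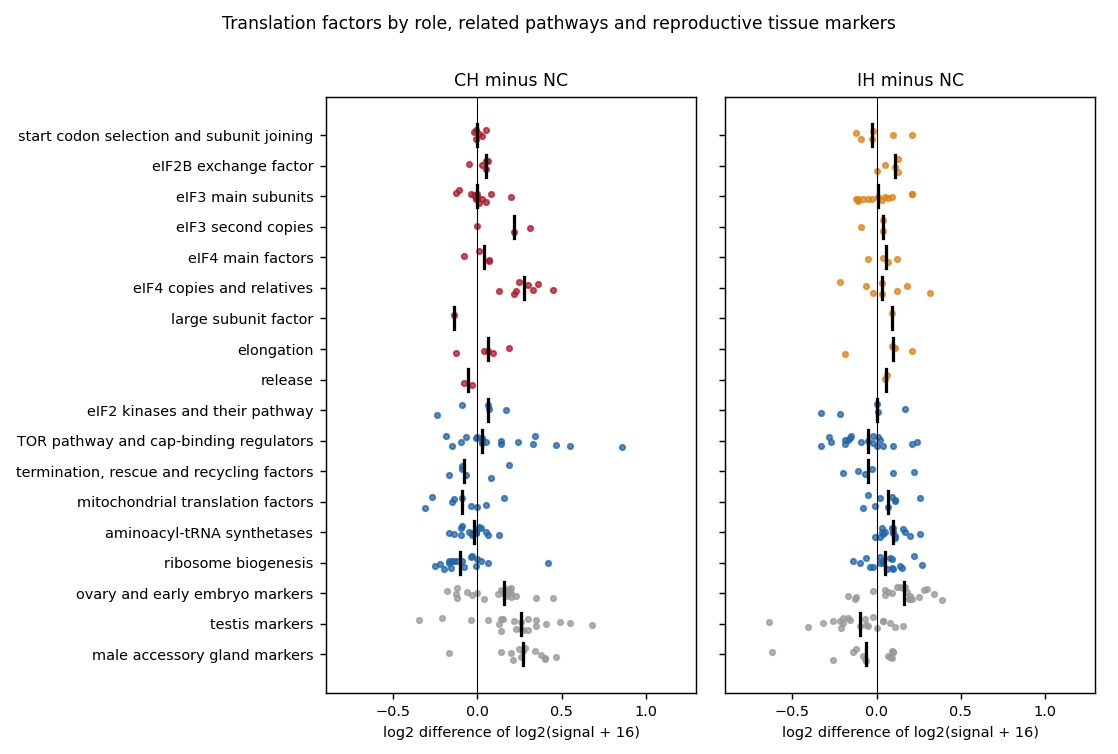
Log2 difference of each gene in CH minus NC (left) and IH minus NC (right) for the 9 roles of the translation factors (red, orange), the 6 related pathways (blue) and the markers of 3 reproductive tissues (grey); black bars are medians. In CH the medians are 0.27 (eIF4 copies), 0.26 (testis markers), 0.27 (accessory gland markers) and 0.00 (main eIF3 subunits). In IH they are 0.03, -0.10, -0.06 and 0.01 in the same order.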

How the data were processed

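Total RNA of whole flies was hybridised to Affymetrix Drosophila Genome 2.0 arrays, 3 for each treatment. The authors deposited linear intensities per probe set, made with the affy package of Bioconductor by options not given in the sources used here, and scaled to a 2% trimmed mean of 2500 on every array. The 183 control probe sets were left out, leaving 18769, of which 13647 had 1 gene symbol in the probe-gene table, 402 several and 4720 none. All 47 members matched a RefSeq gene. log2(intensity + 16) was fitted with lmFit and eBayes (limma 3.58.1, R 4.3.3) with 1 coefficient per treatment, and p-values were adjusted by Benjamini-Hochberg over all probe sets; the script was tested on simulated data. The VAMPIRE suite of the study was not run. Precision is limited by the number of arrays.

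The members and the gene lists (6 pathways: eIF2 kinases, TOR and cap regulators, termination and recycling, mitochondrial factors, aminoacyl-tRNA synthetases, ribosome biogenesis; 6 tissues: ovary, testis, male accessory gland, muscle, neurons, fat body) were chosen with earlier results of these data known. Named were members at an unadjusted p under 0.05 or apart with a fold past 1.5 or 0.67. So were the 5 of largest change in each direction and the extremes of each role. Also named were all paralogs and all eIF2 and eIF2B subunits among the members. Of eIF2 only the beta subunit was a member, and eIF2alpha and eIF2gamma were not. Pathway genes at an unadjusted p under 0.05 were named as well, as were PEK, Gcn2 and crc. AlaRS was chosen after its values were seen. 1 gene of the naming rule was not analysed here. Alternatives were quantile normalization, median centring, pseudocounts of 1 and 50, the dimmest 40% left out, 2 treatments per fit, a replicate block, a trended robust spread, all probe sets of a gene, and each array left out in turn.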

Additional observations from a re-analysis of the deposited data

How the results depend on the processing

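With the replicate number as a block in the fit, the translation factors called numbered 0 in CH against NC, 0 in IH against NC and 0 in CH against IH, and the intervals inside 1.5-fold numbered 37, 39 and 40 of 47. The block brought eIF3f2 in CH against IH to a limma p of 0.0393 (adjusted p 0.655), where 5.31% of all probe sets were under 0.05 on the higher side. No call among the factors changed, while over all probe sets the block left 1, 0 and 0 called against 4, 0 and 7 without it. Deviations of arrays with the same number correlated at 0.0918 to 0.322 and those with other numbers at -0.212 to 0.0833, and all 9 arrays correlated best with their own number. Every same-number correlation thus lay above every other, though 2 of them lay under 0.1. The main fit left the replicate number out, so its p-values and intervals are those of an unpaired fit. Without 1 array at a time 0 factors were called in every comparison (0 to 0). The intervals inside 1.5-fold then ran from 26 to 36 in CH against NC, 22 to 36 in IH against NC and 26 to 33 in CH against IH, and the low IH counts were 23 without NC2 and 22 without NC3. The median of the factors ran from 0.03 to 0.06, 0.03 to 0.07 and -0.03 to 0.03, and that of the eIF4 copies from 0.17 to 0.32, -0.26 to 0.26 and 0.05 to 0.54, with -0.26 and 0.54 coming without IH2 and 0.26 and 0.05 without IH1. Median centring gave intervals inside 1.5-fold of 21, 11 and 9 and medians of 0.13 in IH against NC and -0.14 in CH against IH; the cause was not tested. A pseudocount of 1 brought eIF3f2 in CH against IH to a limma p of 0.0472, and leaving out the dimmest 40% to 0.0308 (adjusted p 1.00 in both). In these fits 3.49% and 2.35% of the probe sets tested were under 0.05 on the higher side. No factor was called under any alternative, while the calls over all probe sets ran from 0 to 17 in CH against NC, stayed at 0 in IH against NC and ran from 0 to 12 in CH against IH. With 3 arrays a treatment, the main CH against NC intervals of most eIF4 copies, all 3 second eIF3 copies, eEF1alpha2 and eEFSec reached past 1.5-fold. Those of eIF4E4, eIF4E6 and eIF4E7 reached past 2-fold. For every factor the interval spanned at least 0.31 on the log2 scale to each side, so that smaller changes could not be told from none.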
